A study of Mus musculus with 57 samples.

Results

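Histone transcripts were followed in 57 mouse embryos, each sequenced on its own, of lines named for Taf5, Taf12 or Taf13. Genes were taken by symbol: H1f, H2ac, H2bc, H3c, H4c, H2ax, H2az or H3f3 with the letters or digits that follow, pseudogenes left out. Of 56557 genes in the table, 79 symbols matched, and the 47 that exceeded 1 FPKM (fragments counted for each kb of gene length and each M, or mega, of mapped reads) in at least 3 libraries of any line and stage were kept. They comprised 34 core, 8 linker and 5 replacement genes. The core genes were 6 for H2A, 11 for H2B, 7 for H3 and 10 for H4. The linker genes were H1f0 to H1f6 and H1f8, and the replacement genes were H2ax, H2az1, H2az2, H3f3a and H3f3b. Just inside the level cut lay H2bc12, H4c12 and H4c14, for which the third highest FPKM in the best set was 1.11, 1.29 and 1.29. Just outside lay H3c10 at 0.999, H2bc3 at 0.858 and H2ac15 at 0.795, and 32 matching symbols were below the cut. By their older symbols, 35 of the 47 belong to the Hist1 cluster on chromosome 13, 2 to Hist2 on chromosome 3, 2 to Hist3 on chromosome 11 and 1 to Hist4 on chromosome 6. All 5 replacement genes, H1f0 and H1f8 lie outside these clusters.

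The embryos fell into 5 sets of line and stage, each with its own WT embryos. Taf12 blastocyst outgrowths were 4 MUT, 3 HET and 4 WT embryos, taken as blastocysts at E3.5 and each cultured for 72 h in medium with fetal bovine serum. Taf12 blastocysts at E3.5 were 3 MUT, 5 HET and 5 WT. Taf13 embryos at E6.5 were 2 MUT, 9 HET and 4 WT, and Taf13 blastocysts were 3 MUT, 4 HET and 4 WT. Taf5 blastocysts were 4 MUT and 3 WT. The series describes the lines as knockouts, no embryo was treated, and the labels describe neither the alleles nor the litters, so p-values measure only the spread between these embryos. MUT, HET and WT are used as the labels give them.

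TAF5, TAF12 and TAF13 are subunits of TFIID, the complex that binds core promoters and recruits RNA polymerase II, and TAF12 is also a subunit of the coactivator SAGA. Replication-dependent histone genes, which supply the core histones and most H1 to new chromatin in S phase, make messengers that usually end in a conserved stem loop in place of a poly(A) tail. Replacement histones such as H2A.Z and H3.3 are made through the cell cycle from polyadenylated messengers. H1f0 is the linker histone known to build up in cells that have left the cycle. The libraries were made with a low-input kit that primes reverse transcription on poly(A), so core histone values cover only the messengers that such priming captures.

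The stem loop is shown for 6 genes whose values are given below, because messengers that end at it usually lack a poly(A) tail. A match does not say which end the counted messengers had. The consensus of the histone stem loop was searched on the transcript strand of GENCODE vM21 transcripts (GRCm38), capitals mark the match, and the flanks are 5 bases on each side.
H1f2: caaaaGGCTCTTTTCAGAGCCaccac
H4c9: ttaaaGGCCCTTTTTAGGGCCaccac
H2bc8: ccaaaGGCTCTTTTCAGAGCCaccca
H2ac25: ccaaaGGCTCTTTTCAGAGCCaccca
H2ax: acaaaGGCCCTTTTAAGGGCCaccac
H2ac11: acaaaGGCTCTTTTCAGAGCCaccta
The match was present in 45 of 21901 coding genes (0.205%), and among the members in 25 of 34 core, 4 of 8 linker and 1 of 5 replacement genes, H2ax. In 19 of these 30 members the annotated transcript ran more than 100 bases past the loop: by 840 bases in H1f2, 330 in H4c9, 155 in H2bc8, 1643 in H2ac25 and 822 in H2ax, but by 23 in H2ac11. H2bc4 and H4c1 had no match, which says only that these letters are not in their annotated transcripts.

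Because the 3 lines concern a core promoter complex, the 110 bases before the annotated start are shown for 6 genes that differ in their values (RefSeq, GRCm38.p6). Capitals mark TATAAA as well as CCAAT, the octamer ATTTGCAT or the H1 box AAACACA on either strand.
H1f2, chr13:23738697-23738806, + strand: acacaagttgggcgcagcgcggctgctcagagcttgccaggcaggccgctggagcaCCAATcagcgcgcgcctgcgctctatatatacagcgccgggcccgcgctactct
H4c9, chr13:22041363-22041472, − strand: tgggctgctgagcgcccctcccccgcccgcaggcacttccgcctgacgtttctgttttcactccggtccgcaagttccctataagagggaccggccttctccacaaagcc
H2bc8, chr13:23571290-23571399, + strand: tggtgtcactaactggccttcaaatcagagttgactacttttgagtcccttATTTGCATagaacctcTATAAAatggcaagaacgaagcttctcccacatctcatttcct
H1f1, chr13:23763558-23763667, + strand: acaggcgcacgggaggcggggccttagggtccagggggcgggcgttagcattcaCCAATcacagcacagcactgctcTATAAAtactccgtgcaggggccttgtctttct
H3f3b, chr11:116024505-116024614, − strand: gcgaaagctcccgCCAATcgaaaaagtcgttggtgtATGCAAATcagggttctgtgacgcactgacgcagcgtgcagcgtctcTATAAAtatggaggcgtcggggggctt
H2az1, chr3:137864377-137864486, + strand: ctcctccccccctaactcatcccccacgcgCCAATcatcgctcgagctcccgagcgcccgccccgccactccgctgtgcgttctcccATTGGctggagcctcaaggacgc
Promoter windows of 300 bases, 250 before and 50 after the start, were at hand for 42 of the 47 genes. TATAAA was found in 22 of these 42 and in 13.6% of all 32851 windows. CCAAT was found in 35 of 42, against 37.4% of all windows; all 6 H2A, 9 H2B and 6 H3 windows held it, but 3 of 9 H4 windows did. The octamer was found in 8 of 42, of which 4 were H2A and 3 H2B genes, against 1.74% of all windows, and the H1 box in 5 of 8 linker windows, against 7.18%. Both strands were searched, and each motif was counted by itself, also where it shared letters with another, as TATAAA can with the H1 box. These are matches of letters, and no match says nothing on a factor's binding.

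Reads recovered from the FPKM values numbered 4.57 M to 21.7 M per library. The lowest was outgrowth MUT 3; the deepest set was Taf13 E6.5, at 18.5 M to 21.7 M. Taf5 transcripts had 0 reads in the 4 Taf5 MUT embryos, against 35.7 ± 20.1 FPKM in WT (SD, n = 3). Taf12 FPKM was 62.2 ± 5.60 in Taf12 MUT blastocysts against 44.6 ± 6.64 in WT, and 52.9 ± 0.82 in MUT outgrowths against 23.2 ± 3.70 in WT. Taf13 FPKM was 24.4 ± 10.0 in Taf13 MUT blastocysts against 37.47 ± 8.64 in WT, and 30.7 ± 5.05 in MUT E6.5 embryos against 32.4 ± 10.3 in WT. Reads over the gene do not test an allele that still makes a transcript, so for Taf12 and Taf13 directions below are those of the libraries labelled MUT. Each set was normalized separately by the authors, so FPKM is compared within a set and within a gene. In whole embryos, fewer cells of a type and less RNA per cell cannot be told apart.

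Summed over all 34 core genes, Taf12 outgrowths labelled MUT had a larger share of their reads in core histones than any other group. Core histone reads came to 1337 ± 203 per M recovered reads in the 4 MUT outgrowths, 126 ± 31.1 in HET and 117 ± 13.7 in WT, a ratio of MUT to WT of 11.4. The lowest MUT outgrowth had 1178 and the highest WT outgrowth 135 per M, so the groups did not overlap. In Taf12 blastocysts the core sum was 254 ± 116 in MUT, 69.2 ± 20.3 in HET and 74.6 ± 13.4 in WT, and the 3 MUT embryos, at 172, 202 and 387, lay above every WT embryo. In Taf13 E6.5 embryos the 2 MUT embryos had 231 and 159 per M, against 94.8 ± 15.5 in HET and 85.3 ± 15.3 in WT, again without overlap with WT. In Taf5 blastocysts the sums were 113 ± 16.5 in MUT and 104 ± 64.9 in WT, and in Taf13 blastocysts 91.3 ± 24.1 in MUT, 70.3 ± 5.61 in HET and 69.3 ± 4.14 in WT, with overlap in both. These sums are descriptions over all members and were given no test.

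**Figure D1:**
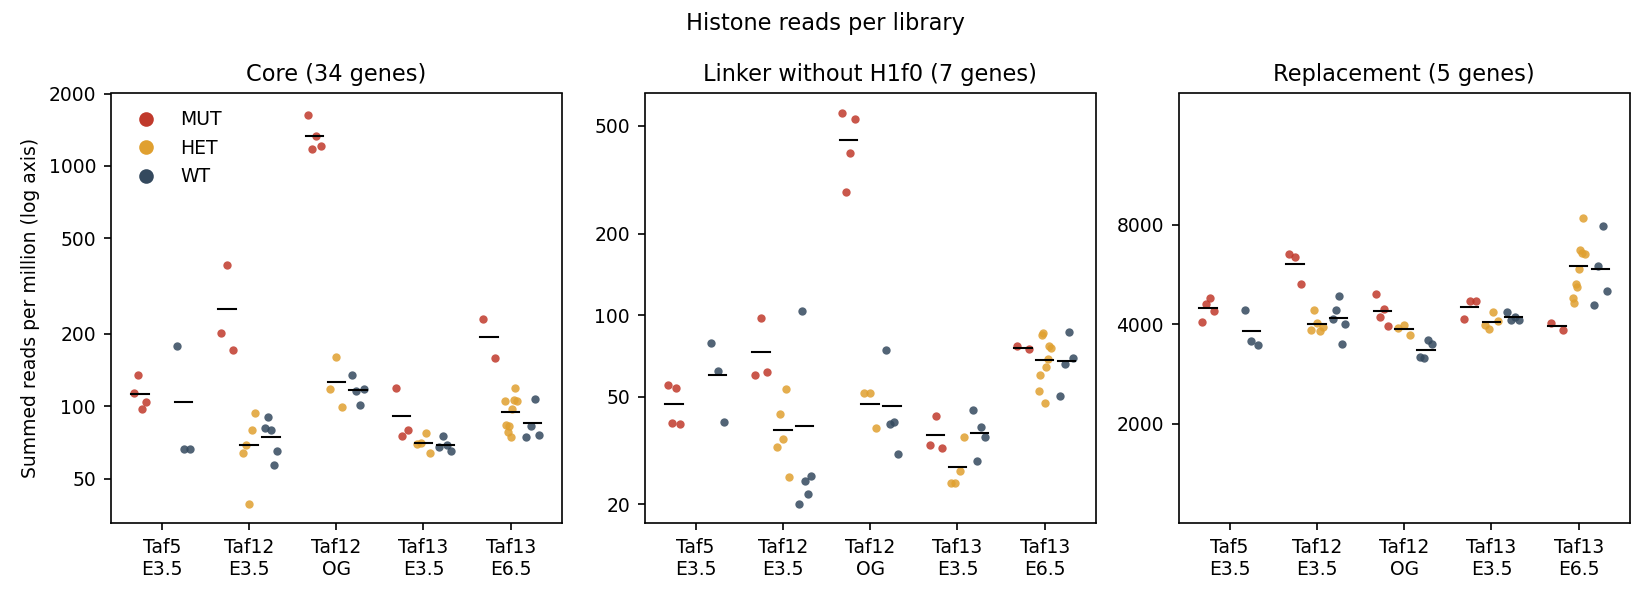
Summed reads per M of the core, linker and replacement histone genes (log axes) in each library, by set, with MUT, HET and WT side by side; points are embryos. The core sums of the MUT embryos lie above those of WT in the Taf12 outgrowths (1178 to 1625 against 101.3 to 134.6 per M), the Taf12 blastocysts and the Taf13 E6.5 embryos, and overlap with WT in the Taf5 and Taf13 blastocysts.

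H2bc4 made up a large part of these sums. Its median share of core histone reads was 78.4% in MUT, 67.2% in HET and 68.9% in WT outgrowths, and 38.9% in MUT, 9.95% in HET and 14.98% in WT Taf12 blastocysts. At Taf13 E6.5 it was 51.2% in MUT, 28.9% in HET and 31.8% in WT. Without H2bc4 the core sum was still 296 ± 45.1 per M in MUT outgrowths against 37.3 ± 5.93 in WT, 137 ± 23.3 in Taf12 MUT blastocysts against 63.4 ± 11.3 in WT, and 93.97 ± 17.003 in Taf13 MUT E6.5 embryos against 56.9 ± 7.17 in WT; none of these 3 pairs overlapped. By type, MUT outgrowths had 12.7 times the WT sum for H2B, 10.6 times for H4, 7.99 times for H3 and 4.56 times for H2A. The H2B ratio was mainly that of H2bc4, with 12933, 10204, 4781 and 10719 reads in the 4 MUT outgrowths. H4c9, with 1420, 1534, 633 and 1348, made up most of the H4 sum. Of the genes tested below, 7 of 10 H4 and 4 of 8 H2B passed a filter on low values only through the MUT libraries. The order of the types was not tested.

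Over all 8 linker genes, reads came to 795 ± 202 per M in MUT outgrowths, 344 ± 52.2 in HET and 398 ± 105 in WT, with overlap. Without H1f0 the linker sum was 442 ± 126 per M in MUT outgrowths and 46.2 ± 19.3 in WT, a ratio of 9.56 and without overlap. Most of this sum was H1f2, so the ratio is mainly that of 1 gene. H1f2 had 5199, 2947, 1618 and 5360 reads in the 4 MUT outgrowths and 586, 238, 284 and 212 in WT. No other gene in the sum exceeded 302 reads in a MUT outgrowth (H1f1). In Taf12 blastocysts the sum without H1f0 was 73.2 ± 21.2 in MUT and 39.1 ± 36.2 in WT, and at Taf13 E6.5 75.8 ± 1.51 in MUT and 68.0 ± 14.9 in WT, both with overlap. With H1f0 it was 169 ± 97.6 in Taf12 MUT blastocysts and 133 ± 32.8 in WT, with overlap, and 243 ± 14.4 in MUT E6.5 embryos, below all 4 WT embryos at 382 ± 61.4. The replacement sum was 4394 ± 424 per M in MUT outgrowths, 3869 ± 144 in HET and 3354 ± 211 in WT; MUT and HET outgrowths both lay above every WT outgrowth and overlapped each other. In Taf12 blastocysts it was 6078 ± 666 in MUT, above every HET embryo (4014 ± 243) and every WT embryo (4194 ± 519). At Taf13 E6.5 it was 3943 ± 130.5 in MUT, below every WT embryo (5896 ± 1495).

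The change in single genes was tested on log2(FPKM + 1), a scale that understates the change of low genes, with limma and Benjamini-Hochberg adjustment over all genes of the set; a gene was called when its adjusted p was under 0.05. In Taf12 outgrowths, 30 of the 42 histone genes tested rose in MUT against WT and 1 fell. Of all 13068 genes tested in that comparison, 37.9% were called, 18% higher and 19.9% lower. The median log2 fold change was 1.61 over the histone genes tested and −0.05 over all genes. By class, 26 of 30 core genes rose (median 1.76), as did 3 of 7 linker genes (median 1.17) and 1 of 5 replacement genes, while 1 replacement gene fell. By type, calls went to 4 of 5 H2A, 7 of 8 H2B, 6 of 7 H3 and 9 of 10 H4 genes. The low-level filter let 18 of the 42 in only through their MUT libraries; of the 24 that passed without the MUT libraries, 16 rose and 1 fell, with a median of 1.74. The 5 genes not tested were H1f8, H2ac11, H2bc12, H2bc21 and H2bc27. Core genes of the same type are near-identical in their coding parts, and how reads fitting several genes were counted is not given in the sources used here, so the split among copies is uncertain.

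**Figure D2:**
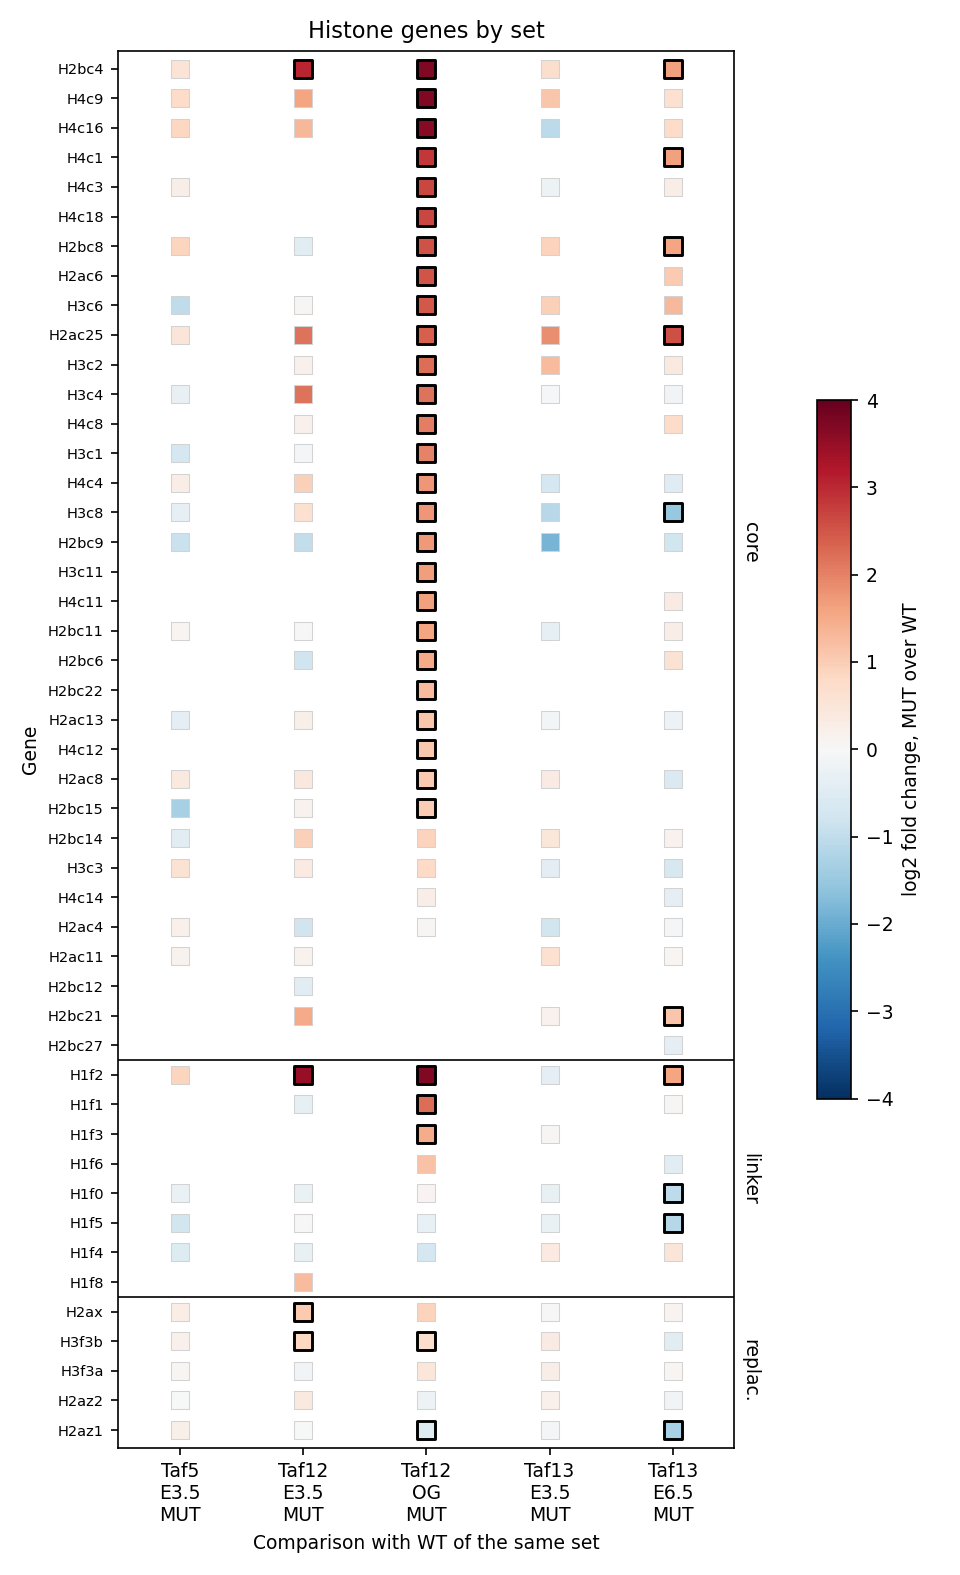
Log2 fold change of MUT over WT for each of the 47 histone genes (rows, grouped by class) in the 5 sets (columns), as colour; a blank cell was not tested and a black outline marks an adjusted p under 0.05. The Taf12 outgrowth column holds 31 outlined cells, the Taf13 E6.5 column 10, the Taf12 E3.5 column 4 and the other columns none.

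Among H2B genes, which encode a core histone that pairs with H2A, H2bc4 (ENSMUSG00000018102, chromosome 13) had 1090.0, 787, 922 and 887 FPKM in the 4 MUT outgrowths, 66.8, 105 and 56.8 in HET and 75.9, 65.2, 58.2 and 71.6 in WT. Every MUT outgrowth lay above every HET and WT outgrowth, by 13.6 times in the mean over WT (log2 fold change 3.74, SE 0.19, adjusted p = 1.03e-06). H2bc8 had 15.9, 31.9, 12.4 and 17.4 FPKM in MUT and 4.99, 1.71, 1.69 and 1.60 in WT (2.56, SE 0.37, adjusted p = 0.000499). H2bc11 had 9.85, 11.6, 5.63 and 8.19 FPKM in MUT and 3.66, 1.55, 2.04 and 2.00 in WT (1.57, adjusted p = 0.00265). All 4 MUT values of both genes were above the WT values. H2bc6 had 2.87, 0.896, 1.94 and 2.69 FPKM in MUT and 0.0600, 0.133, 0 and 0 in WT; few WT reads were counted, and the ratio of summed reads was 45.2 with a 95% counting interval of 15.1 to 223 (adjusted p = 0.00141). H2bc22 had 2.45, 1.44, 2.14 and 0.704 FPKM in MUT and 0, 0.0845, 0.0990 and 0.132 in WT (adjusted p = 0.00349). These too did not overlap, but lie near the lowest levels measured. H2bc15, with 1.29, 2.35, 1.47 and 1.26 FPKM in MUT and 1.18, 0, 0.144 and 0 in WT, was called at adjusted p = 0.0234 and not without MUT 2 (0.0596), WT 2 (0.063), WT 3 (0.0548) or WT 4 (0.0638). H2bc9, with 3.39, 0.664, 3.88 and 10.2 FPKM in MUT and 0, 0, 1.74 and 0.232 in WT, overlapped between groups, and its call (adjusted p = 0.0417) was lost without MUT 1 (0.0712), MUT 3 (0.0783), MUT 4 (0.101), WT 1 (0.0949), WT 2 (0.0975) or WT 4 (0.0843). H2bc14 was not called (log2 fold change 0.92, adjusted p = 0.0813). H2bc6, H2bc14, H2bc15 and H2bc22 had passed the filter only through the MUT libraries.

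Of the 10 H4 genes tested, whose protein pairs with H3, 9 rose; 7 of the 10 had passed the filter only through the MUT libraries, 6 of them called, and the 3 that passed without these, H4c4, H4c9 and H4c16, were all called. H4c9 had 161, 159, 164 and 150.3 FPKM in MUT outgrowths, 8.42, 13.4 and 10.3 in HET and 16.1, 8.35, 8.16 and 15.1 in WT. The MUT values lay close together and 13.3 times above WT in the mean (log2 fold change 3.69, SE 0.23, adjusted p = 4.04e-06). H4c3 had 9.91, 8.40, 10.7 and 6.02 FPKM in MUT and 0.828, 0.736, 0.270 and 0.230 in WT. H4c18 had 11.1, 7.34, 8.00 and 4.65 FPKM in MUT and 0.378, 0.210, 0.554 and 0.197 in WT. Neither gene overlapped between groups (log2 fold changes 2.68 and 2.67, adjusted p = 3.53e-05 and 5.04e-05). H4c8 had 4.16, 4.24, 6.52 and 7.82 FPKM in MUT and 0.764, 0.121, 0.747 and 0.797 in WT. H4c4 had 30.7, 21.3, 10.4 and 13.8 FPKM in MUT and 3.26, 5.52, 4.548 and 4.85 in WT. Both rose without overlap (log2 fold changes 2.04 and 1.76, adjusted p = 0.000255 and 0.00152). H4c11 had 1.90, 5.92, 4.65 and 2.37 FPKM in MUT and 0, 1.17, 0.456 and 0.243 in WT, and H4c12 had 1.01, 2.03, 1.61 and 1.29 FPKM in MUT and 0.278, 0.206, 0.181 and 0 in WT. H4c1 had 6.67, 9.15, 6.24 and 5.96 FPKM in MUT and 0, 0, 0 and 0.581 in WT. These 3 rose without overlap (adjusted p = 0.00566, 0.00414 and 2.46e-05), and for H4c1 the ratio of summed reads was 49.98 with a counting interval of 13.4 to 419. H4c16 had 65.9, 56.3, 46.3 and 5.18 FPKM in MUT and 0.808, 5.39, 3.16 and 0 in WT; it rose (3.63, SE 0.82, adjusted p = 0.0059), although the lowest MUT outgrowth fell within the WT range. H4c14 was not called (0.26, adjusted p = 0.656).

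Among H3 genes, H3c6 had 20.4, 15.8, 26.1 and 13.6 FPKM in MUT outgrowths and 2.68, 2.52, 1.61 and 3.43 in WT. H3c2 had 9.49, 15.6, 4.88 and 9.79 FPKM in MUT and 0.654, 1.45, 1.07 and 1.59 in WT. H3c4 had 20.7, 19.9, 17.9 and 16.8 FPKM in MUT and 2.29, 2.55, 4.80 and 4.44 in WT. All 3 rose without overlap, by log2 fold changes of 2.47, 2.25 and 2.17 (adjusted p = 0.000357, 0.000522 and 0.000105). H3c1 had 1.35, 10.1, 3.57 and 2.97 FPKM in MUT and 0.0958, 0.106, 0.281 and 0.200 in WT, and H3c11 had 2.26, 2.16, 2.64 and 2.37 in MUT and 0.0965, 0.107, 0 and 0 in WT. Both rose from levels at or near 0 in WT (log2 fold changes 2.00 and 1.68, adjusted p = 0.0035 and 0.000166). H3c1 and H3c11 had passed the filter only through the MUT libraries. H3c8 had 8.31, 8.496, 7.83 and 2.40 FPKM in MUT and 0.899, 0, 3.51 and 1.41 in WT; it was called (adjusted p = 0.0141) with overlap, and not with HET added to WT as the control (0.0644). H3c3 was not called (0.79, adjusted p = 0.236).

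Of the 5 H2A genes tested, 4 rose. H2ac6 had 27.2, 9.25, 20.48 and 7.98 FPKM in MUT outgrowths and 1.52, 2.54, 0.596 and 2.54 in WT. H2ac25 had 155, 85.1, 66.2 and 78.1 FPKM in MUT and 22.9, 13.9, 14.7 and 15.9 in WT. H2ac8 had 11.7, 16.1, 12.2 and 8.09 FPKM in MUT and 6.56, 6.03, 5.18 and 3.42 in WT. All 3 rose without overlap, by log2 fold changes of 2.53, 2.39 and 1.04 (SE 0.46, 0.30 and 0.24, adjusted p = 0.00176, 0.000235 and 0.00689). H2ac13, with 2.18, 3.76, 3.88 and 0.713 FPKM in MUT and 0, 0.989, 1.09 and 0.464 in WT, overlapped, and its call (adjusted p = 0.0446) was lost without MUT 1 (0.0705), MUT 2 (0.106), MUT 3 (0.107), WT 1 (0.115), WT 2 (0.0544) or WT 4 (0.0901), and with the voom weights on recovered reads (0.118). H2ac4 was not called (0.08, adjusted p = 0.898). H2ac4 and H2ac13 had passed the filter only through the MUT libraries.

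Linker histones, which bind the nucleosome where DNA enters and leaves it, were split in the outgrowths. H1f2 (ENSMUSG00000036181, chromosome 13) had 217, 112, 154 and 219.7 FPKM in MUT, 10.1, 15.3 and 8.26 in HET and 22.5, 10.1, 10.6 and 8.48 in WT. Its MUT values lay above all others, 13.6 times WT in the mean (log2 fold change 3.71, SE 0.32, adjusted p = 3.09e-05). H1f1 had 7.26, 5.72, 6.66 and 5.95 FPKM in MUT and 0.575, 0.344, 0.756 and 0.599 in WT, and H1f3 had 3.62, 1.56, 3.17 and 5.08 in MUT and 0.786, 0.749, 0.329 and 0.195 in WT. Both rose without overlap (log2 fold changes 2.24 and 1.48, adjusted p = 3.53e-05 and 0.00339). Both had passed the filter only through the MUT libraries, as had H1f6. Of the 4 linker genes that passed without these libraries, 1 was called, H1f2. H1f6, a testis linker histone, had a log2 fold change of 1.17 that did not pass (adjusted p = 0.138). H1f0, the linker of non-dividing cells, was at 193 ± 40.3 FPKM in MUT and 185 ± 66.7 in WT (0.10, adjusted p = 0.776). H1f4 (−0.72, adjusted p = 0.153) and H1f5 (−0.33, adjusted p = 0.4) had negative changes that did not pass.

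Of the 5 replacement histone genes, 1 rose and 1 fell. H3f3b (ENSMUSG00000016559, chromosome 11), which with H3f3a encodes H3.3, had 3843, 3553, 3652 and 3251 FPKM in MUT outgrowths, 2466, 2611 and 2421 in HET and 2094, 1912, 2202 and 2563 in WT. It rose 1.63 times in the mean over WT, without overlap (log2 fold change 0.71, SE 0.10, adjusted p = 0.000415). H2az1, which encodes H2A.Z, had 311, 375, 317 and 368 FPKM in MUT, 619, 630.4 and 593 in HET and 458, 466, 574 and 448 in WT. It fell to 0.704 of the WT mean, every MUT outgrowth below every HET and WT outgrowth (−0.50, SE 0.11, adjusted p = 0.00476). H2ax, whose protein is phosphorylated at DNA breaks, had 186, 52.97, 133 and 90.7 FPKM in MUT and 55.6, 62.8, 51.3 and 49.9 in WT; it overlapped and did not pass (adjusted p = 0.052). H3f3a had a log2 fold change of 0.50 (adjusted p = 0.07) and H2az2, the other H2A.Z gene, one of −0.20 (adjusted p = 0.571). Without outgrowth MUT 3, the library of 4.57 M reads, 28 histone genes were called, 27 higher and 1 lower.

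**Figure D3:**
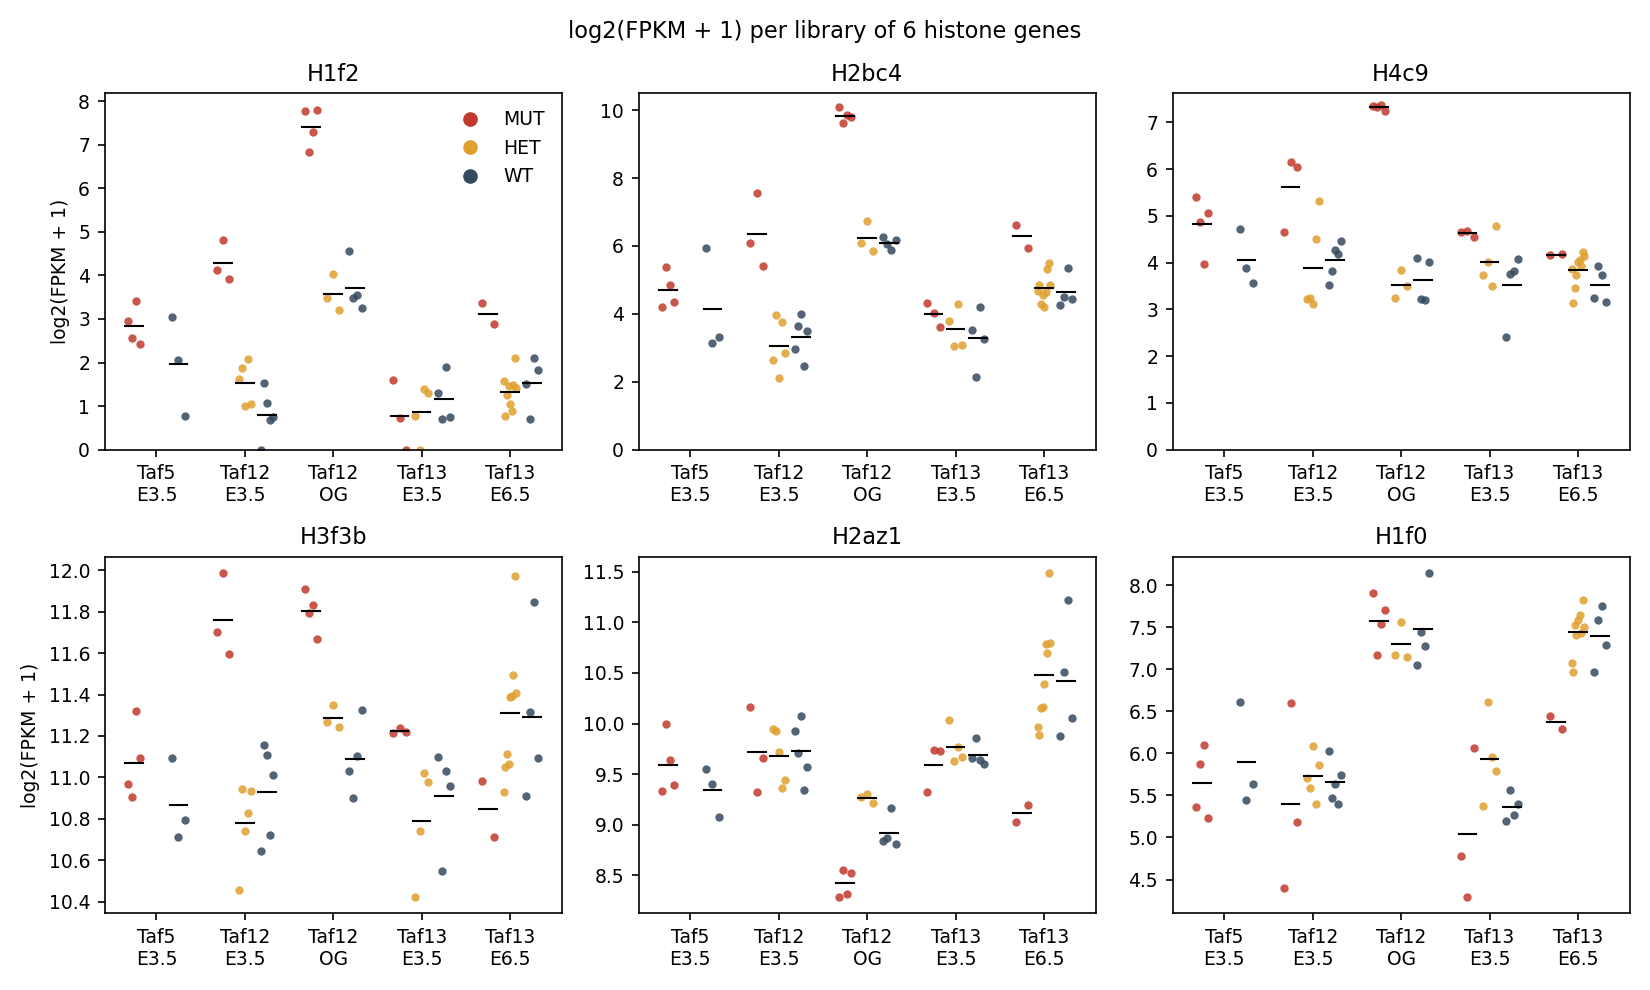
log2(FPKM + 1) per library of H1f2, H2bc4, H4c9, H3f3b, H2az1 and H1f0 in the 5 sets, MUT, HET and WT side by side; points are embryos, values compare within a set only, and the axes of H3f3b, H2az1 and H1f0 do not start at 0. In the outgrowths the 4 MUT points of H1f2, H2bc4, H4c9 and H3f3b lie above all HET and WT points, and those of H2az1 lie below.

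Between genes, levels were compared as recovered reads per kilobase of annotated exon and M reads. In MUT outgrowths the order began with H3f3b at 1085 ± 104, H2bc4 at 901 ± 146, H2az1 at 366 ± 27.3 and H2ax at 276 ± 143, with H1f2 at 257 ± 77.2. The ranges of H3f3b and H2bc4 overlapped, as did those of H2ax and H1f2. In WT outgrowths it began with H3f3b at 697 ± 71.3, H2az1 at 547 ± 72.8, H1f0 at 171 ± 57.8, H2ax at 137 ± 17.2 and H2bc4 at 69.3 ± 6.91, with H1f2 at 19.8 ± 9.73. H1f0 and H2ax overlapped there. H2bc4 thus had the second highest level of all histone genes in MUT outgrowths and the fifth in WT.

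The outgrowths also differed in cell type markers. Summed trophectoderm markers (Cdx2, Gata3, Krt8 and Krt18) were 28187 to 36319 per M in MUT, 6231 to 7887 in HET and 4592 to 9656 in WT, and 3 of the 4 rose, Gata3 being the exception. Giant cell markers (Hand1, Prl3d1 and Prl2c2) summed to 7170 to 18168 in MUT, 25477 to 29440 in HET and 21647 to 32927 in WT; Prl3d1 fell (−1.34, adjusted p = 0.0133) and Hand1 rose (0.60, adjusted p = 0.0172). Primitive endoderm markers were 4.35 to 53.5 in MUT, 19.8 to 103 in HET and 41.1 to 152 in WT (1 of 3 fell, Sox17), and visceral endoderm markers 0 to 5.47 in MUT, 2.54 to 12.8 in HET and 32.7 to 198 in WT, with Apoa1 and Ttr called lower in MUT; MUT and HET outgrowths both lay below every WT outgrowth. Oocyte markers summed to 3.44 to 11.2 in MUT, 0.284 to 1.27 in HET and 0.819 to 1.45 in WT. Of the 2 tested, Zp3 was called higher in MUT and Gdf9 did not pass (adjusted p = 0.271). Epiblast markers were near 0 in all 3 genotypes (0.689 to 9.10 per M in MUT, 0.182 to 8.39 in WT), with Sox2 at 0 reads in MUT. Mitochondrial reads were 1.45% to 2.16% in MUT and 0.947% to 1.33% in WT. The part of these in the histone values was not tested.

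In Taf12 blastocysts, before culture, 4 of the 35 histone genes tested rose in MUT against WT and none fell, at 1.44% of all 12751 genes called and 0.502% called higher. The median log2 fold change was 0.22 over the histone genes and −0.08 over all genes. H1f2 had 16.3, 27.1 and 14.1 FPKM in MUT, 2.09, 2.69, 0.993, 3.25 and 1.06 in HET and 0, 1.87, 1.09, 0.591 and 0.680 in WT. All 3 MUT embryos were above all HET and WT embryos (log2 fold change 3.48, SE 0.42, adjusted p = 0.0035). H2bc4 had 67.6, 189 and 41.4 FPKM in MUT, 5.23, 14.5, 3.32, 12.5 and 6.14 in HET and 6.79, 11.6, 15.1, 4.501 and 10.2 in WT, again without overlap (3.04, SE 0.55, adjusted p = 0.0199). H2ax had 233, 291 and 175 FPKM in MUT and 135, 110.5, 120.3, 88.7 and 101.4 in WT (1.04, adjusted p = 0.021). H3f3b had 3335, 4056 and 3094 FPKM in MUT and 1599, 2279.9, 2209, 1689 and 2063 in WT (0.83, adjusted p = 0.0259). Neither replacement gene overlapped. Of the genes not called, H2bc21 (1.53, adjusted p = 0.0977), H2ac25 (2.16, 0.153), H4c9 (1.57, 0.161) and H2az2 (0.40, 0.294) also had every MUT embryo above every WT embryo. Called or not, 8 of the 35 histone genes separated in this way and 0 lay below WT. The share of all genes that separated so is not given here.

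The count in Taf12 blastocysts rested on few embryos. It was 1 without MUT 2, when H2bc4 had an adjusted p of 0.057, H2ax 0.0696 and H3f3b 0.0789, and 2 without MUT 1, the library with 3.58% mitochondrial reads and 11875 genes detected, when H2ax had 0.0596 and H3f3b 0.0577. H2ax was also lost without WT 2 (0.0524) or WT 5 (0.0515), and H3f3b without WT 4 (0.0562), whereas H1f2 stayed called under every alternative tried. None of the 4 trophectoderm, 3 epiblast or 3 primitive endoderm markers was called: their sums were 4582 to 9101, 235 to 574 and 32.2 to 70.7 per M in MUT, and 4594 to 6653, 582 to 779 and 69.3 to 145 in WT. Of the visceral endoderm markers, whose list summed to 12.9 to 24.6 in MUT, 40.4 to 68.7 in HET and 36.4 to 73.4 in WT, Apoa1, the 1 of 3 that passed the filter, fell (−1.54, adjusted p = 0.0201). Oocyte markers summed to 11.8 to 17.5 in MUT and 5.06 to 12.7 in WT. Of these, Nlrp14 rose, Zp3 did not pass (−0.40, adjusted p = 0.867) and Gdf9 was not tested. The part of all these markers in the histone values was not tested.

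Whether the MUT effect was larger in outgrowths than in blastocysts of the Taf12 line was tested as the difference of the 2 log2 fold changes. Of the 31 histone genes tested, 6 had a larger change in outgrowths and none a smaller one, at 11.2% of all 11187 genes called and 5.85% called higher. The median difference was 0.82 over the histone genes and 0.05 over all genes. Of the 6, H1f1, H2bc6, H3c1 and H4c8 had passed the outgrowth filter only through the MUT libraries, in which they are high, and 2, H2bc8 and H4c9, without them; all 6 passed the blastocyst filter without the MUT libraries. The 6 genes were H2bc8 (3.02, SE 0.75, adjusted p = 0.0125), H1f1 (2.61, SE 0.46, 0.00115), H2bc6 (2.32, SE 0.60, 0.0156), H4c9 (2.12, SE 0.60, 0.0261), H3c1 (2.08, SE 0.61, 0.0322) and H4c8 (1.83, SE 0.47, 0.0144). No difference was called for the genes that had risen in both sets: H2bc4 had 0.70 (SE 0.61, adjusted p = 0.497), H1f2 0.23 (SE 0.52, 0.824) and H3f3b −0.12 (SE 0.19, 0.724). The H4c9 call was lost without blastocyst MUT 1 (0.0776) or outgrowth WT 2 (0.0558) or WT 3 (0.0528). That of H3c1 was lost without blastocyst MUT 2 (0.0959), WT 3 (0.0524) or WT 5 (0.053), or outgrowth MUT 2 (0.0654), WT 1 (0.0539), WT 2 (0.0564) or WT 4 (0.0541).

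**Figure D4:**
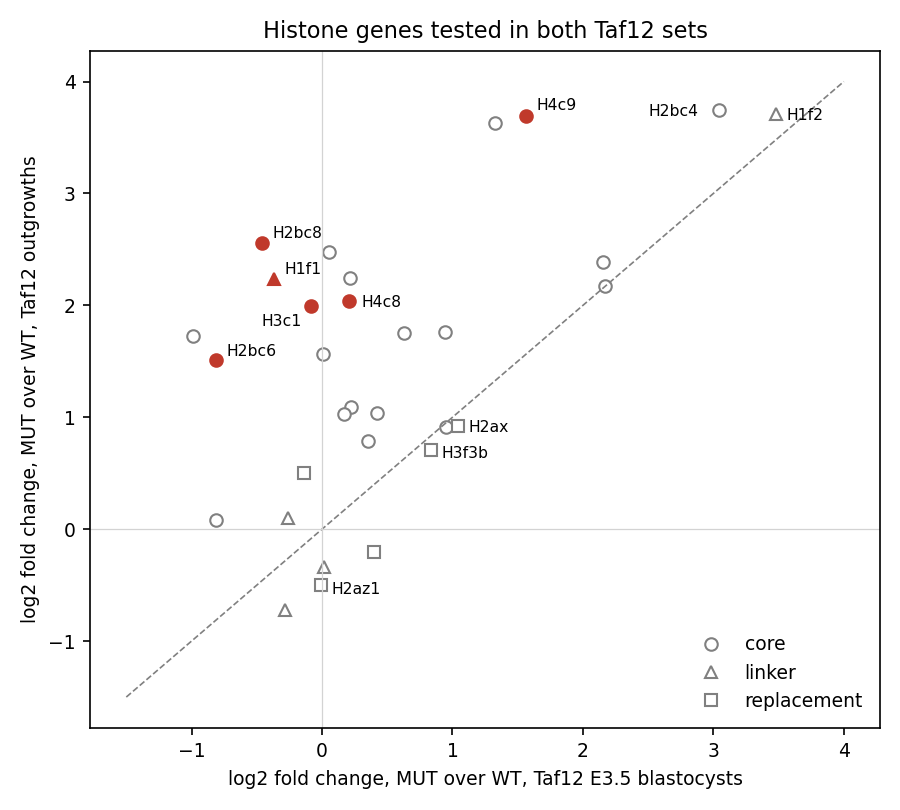
Log2 fold change of MUT over WT in Taf12 outgrowths (vertical axis) against that in Taf12 E3.5 blastocysts (horizontal axis), a point per histone gene tested in both, marked by class; filled red points are the 6 genes whose difference was called. The dashed line marks equal change; H1f2 (3.71 in outgrowths, 3.48 in blastocysts) and H2bc4 (3.74 and 3.04) lie near it, whereas H2bc8 (2.56 and −0.46) and H1f1 (2.24 and −0.37) lie far above it.

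In Taf13 embryos at E6.5, 6 of the 38 histone genes tested rose in MUT against WT and 4 fell, at 13% of all 14417 genes called, 6.64% higher and 6.4% lower. The median log2 fold change was 0.09 over the histone genes and 0.03 over all genes. The 6 that rose were 5 core genes and H1f2. H2ac25 had 50.1 and 27.1 FPKM in the 2 MUT embryos and 2.67, 9.59, 4.98 and 5.74 in WT (2.59, SE 0.35, adjusted p = 0.000358). H4c1 had 2.48 and 3.21 FPKM in MUT and 0.292, 0.161, 0.167 and 0.283 in WT (1.65, SE 0.28, adjusted p = 0.00158). These 2 stayed called under every alternative tried, but H4c1 had passed the filter on low values only through the 2 MUT embryos; the 9 other genes called passed without them. H2bc4 had 98.2 and 60.6 FPKM in MUT, 17.4 to 44.2 in HET and 18.1, 21.5, 40.2 and 20.9 in WT (1.65, adjusted p = 0.0102). H1f2 had 9.24 and 6.37 FPKM in MUT, 0.7101 to 3.30 in HET and 1.85, 0.640, 3.28 and 2.57 in WT (1.58, adjusted p = 0.0159). H2bc8 had 8.73 and 3.36 FPKM in MUT and 1.51, 0.221, 2.07 and 1.46 in WT (0.0164), and H2bc21 had 3.69 and 2.48 in MUT and 0.703, 0.981, 0.825 and 0.937 in WT (0.0325). In all 6 both MUT embryos lay above all 4 WT embryos. Called or not, 10 of the 38 histone genes lay above all WT embryos in this way and 7 below. The share of all genes that did so is not given here.

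The 4 genes that fell were H1f0, H1f5, H3c8 and H2az1. H1f0 had 85.9 and 77.6 FPKM in MUT and 124, 191, 214 and 156 in WT (−1.03, SE 0.25, adjusted p = 0.0135). H2az1 had 521 and 586 FPKM in MUT and 938, 1460.0, 2384 and 1065 in WT (−1.30, SE 0.41, adjusted p = 0.0496). H1f5, an S-phase linker gene, had 24.8 and 38.1 FPKM in MUT and 43.4, 81.8, 95.7 and 64.8 in WT (−1.13, adjusted p = 0.0498). H3c8 had 0.222 and 2.699 FPKM in MUT and 5.18, 2.85, 6.73 and 6.38 in WT (−1.51, adjusted p = 0.031). Both MUT embryos lay below all WT embryos for each of the 4. H3f3b, at 2023 and 1678 FPKM in MUT and 1923, 2549, 3683 and 2182 in WT, was not called (−0.44, adjusted p = 0.31), and neither was H2ax (0.12, 0.725).

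With 2 MUT embryos, 1 library decided most of these calls. Without MUT 1, which had 1.11% mitochondrial reads against 0.379% in MUT 2, 2 genes were called, and the adjusted p was 0.177 for H2bc4, 0.195 for H1f2, 0.302 for H2bc8, 0.287 for H2bc21, 0.0861 for H1f0, 0.292 for H2az1, 0.41 for H1f5 and 0.497 for H3c8. Without MUT 2, H1f0 (0.0688), H2az1 (0.117) and H1f5 (0.057) were lost. Without WT 4, 6 genes were called, with H2az1 at 0.0527, H2bc21 at 0.0528, H1f5 at 0.0725 and H3c8 at 0.0646. The other losses were H2bc21 (0.0613) and H3c8 (0.0526) without WT 1, H2az1 (0.097), H2bc21 (0.058) and H1f5 (0.11) without WT 2, and H2az1 (0.0902), H1f5 (0.0918) and H3c8 (0.0564) without WT 3.

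The E6.5 MUT embryos differed from WT in cell type markers. Pou5f1 and Otx2, markers of the epiblast, had 0 reads in both MUT embryos; the epiblast list summed to 0 and 0.687 per M in MUT, 55.96 to 175 in HET and 70.4 to 153 in WT, and the epiblast and streak list to 8.65 and 13.5 in MUT against 135 to 339 in WT. Primitive endoderm markers summed to 398 and 1103 in MUT and 170 to 307 in WT, with Sox17 called higher (1.28, adjusted p = 0.0133). Visceral endoderm markers summed to 1627 and 2014 in MUT and 1876 to 2896 in WT, with none of 3 called. Maternal decidua markers summed to 471 and 1147 in MUT, 2.55 to 455 in HET and 30.3 to 902 in WT, with Col1a1 and Hand2 called higher. Their part in the histone values was not tested.

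No histone gene was called in MUT blastocysts of the other lines. In the Taf5 line 0 of 29 tested passed, at 0.111% of all 10843 genes called, and 2 had an unadjusted p under 0.05. H1f2 had 6.80, 4.89, 9.64 and 4.40 FPKM in MUT and 7.23, 3.14 and 0.712 in WT, H2bc4 had 17.4, 40.6, 27.8 and 19.4 in MUT and 60.2, 7.91 and 8.91 in WT, and both overlapped. H3f3b had 2003, 1915, 2553 and 2185 FPKM in MUT and 2186, 1678 and 1772 in WT. The smallest p-values were those of H2bc15 (−1.33, adjusted p = 0.57), H1f5 (−0.77, 0.591) and H4c9 (0.78, 0.704). In the Taf13 line 0 of 30 passed, at 0.134% of all 11975 genes called, and 4 had an unadjusted p under 0.05. H1f2 had 2.04, 0.668 and 0 FPKM in MUT and 1.47, 0.616, 2.7001 and 0.677 in WT, H2bc4 had 18.9, 15.1 and 11.3 in MUT and 10.6, 3.40, 17.4 and 8.57 in WT, again with overlap. H3f3b had 2373, 2416 and 2381 FPKM in MUT and 2192, 1496, 2093 and 1992 in WT. The smallest p-values were those of H3c2 (1.25, adjusted p = 0.395), H2ac25 (1.87, 0.415) and H2bc9 (−1.85, 0.453). Voom weights on the recovered reads also gave 0 calls in both lines. Of the markers, Sox17 of the primitive endoderm was called lower in Taf13 MUT blastocysts (−3.28, adjusted p = 0.0157), with 0 reads in all 3. The other primitive endoderm markers there were not called. Gata4, also at 0 reads in MUT, had −4.06 (adjusted p = 0.114), and Gata6 had 0.05 (0.978).

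The difference between lines at E3.5 was tested directly for the genes in common. Against Taf13, the Taf12 effect was larger for H1f2 by 3.86 (SE 0.63, adjusted p = 0.0154), the 1 call among 28 histone genes, at 0.0432% of all 11574 genes called. H2ax (1.02, adjusted p = 0.161) and H2bc4 (2.34, 0.256) did not pass, and the H1f2 call was itself lost with a pseudocount of 0.1 and with the replicate block, the highest of these adjusted p being 0.147. Against Taf5, 0 of 28 passed, at 0.0187% called, with 5 at an unadjusted p under 0.05; H1f2 had 2.60 (SE 0.67, adjusted p = 0.229) and H2bc4 2.48 (SE 0.91, 0.491). Between Taf13 stages, E6.5 minus E3.5, 0 of 29 passed, at 3.68% called, with 3 at an unadjusted p under 0.05: H1f2 (1.96, SE 0.63, adjusted p = 0.0835), H2az1 (−1.21, 0.149) and H3f3b (−0.76, 0.224). A difference that missed the threshold does not show that lines or stages were alike.

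HET embryos gave no call in any set by limma or by voom weights. Over all genes, 0% were called in HET of Taf12 E3.5, Taf13 E3.5 and Taf13 E6.5, and 0.0306% (4 genes) in HET outgrowths. Histone genes with an unadjusted p under 0.05 numbered 6 in HET outgrowths, 1 in Taf12 blastocysts and 0 in both Taf13 sets. In outgrowths the smallest p-values were those of H4c1 (0.88, adjusted p = 0.762) and H2az1 (0.34, 0.96), both above WT in every HET embryo, and H2bc8 (−1.04, 1), below WT in every one. H2az1 was thus lower than WT in the MUT outgrowths and, by values that did not pass, higher in HET. In Taf12 blastocysts they were those of H2bc6 (−1.08), H1f2 (0.73) and H2bc21 (−0.71), in Taf13 blastocysts H2bc9 (−1.28), H1f0 (0.57) and H1f5 (−0.38), and at E6.5 H2ac11 (0.35), H2ac4 (0.40) and H4c16 (0.70).

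The changes were set beside the annotated 3′ ends of core and linker genes shown above, as a description. In MUT outgrowths, 14 of 17 genes with a stem loop and more than 100 bases past it rose, 6 of 9 with 100 bases or fewer and 9 of 11 with no match. These include members that passed the filter only through the MUT libraries. Of all genes tested there, 18% were called higher. At Taf13 E6.5, 3 of 17, 0 of 7 and 3 of 9 rose, and 3 of the 9 with no match fell. Among all genes of that comparison, 6.64% were called higher and 6.4% lower. In Taf12 MUT blastocysts, 1 of 12, 0 of 9 and 1 of 9 rose, where 0.502% of all genes were called higher. The groups were given no test, and Taf5 and Taf13 blastocysts, with no call, were not counted this way.

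Genes that act with histones were counted in 4 lists. In MUT outgrowths, 18 of 27 DNA replication genes fell and 1 rose, with a median of −0.71, where 37.9% of all genes were called and 19.9% were lower. Tk1, the S-phase thymidine kinase, was at 72.3 ± 20.9 FPKM in MUT and 625 ± 138 in WT (−3.11, adjusted p = 6.04e-06), and Ccna2, the S-phase cyclin, at 15.6 ± 6.51 in MUT and 67.7 ± 2.72 in WT (−2.16, 0.00029). Mcm3, a subunit of the replicative helicase, also fell (−1.60, 8.39e-05), whereas Pcna, the polymerase clamp, did not pass (0.05, 0.847). The 1 that rose was Ccne2, a cyclin of S-phase entry, at 209.7 ± 96.4 FPKM in MUT and 105 ± 35.6 in WT (0.95, 0.046). Core histone genes thus rose in the same libraries in which most replication genes fell. Of 25 histone chaperones 10 fell and none rose, a called share close to the 37.9% of all genes, of which 19.9% were lower, with Asf1b (−1.72, 0.00104) and Chaf1a (−1.29, 0.0113), which deliver H3 and H4 to new DNA, and Hira (−0.73, 0.0209), which deposits H3.3.

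Of 16 genes for making and processing histone messengers, 3 rose and 2 fell in MUT outgrowths, a smaller called share than the 37.9% of all genes. Ncbp2 (1.14, adjusted p = 0.00064) and Ncbp1 (0.47, 0.0223), which form the cap-binding complex, and Lsm10 (1.04, 0.00126), of the U7 particle that cuts at the stem loop, rose. Cstf2 (−1.13, 0.000809), a cleavage stimulation factor, and Srrt (−0.48, 0.022) fell. Slbp, which binds the stem loop (0.19, 0.379), and Npat, the cell cycle activator of histone genes (0.44, 0.0753), did not pass. Of 5 other histone variants tested, Macroh2a1 (1.20, 0.00017), H2aj (0.54, 0.0252) and H3f4 (1.70, 0.0243) rose, and Macroh2a2 (−1.06, 0.00915) and Cenpa, the centromeric H3 (−1.10, 0.000254), fell. H3f4 had passed the filter only through the MUT libraries, in which it had at most 16 reads. It was at 0 FPKM in HET and at most 0.279 in WT.

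**Figure D5:**
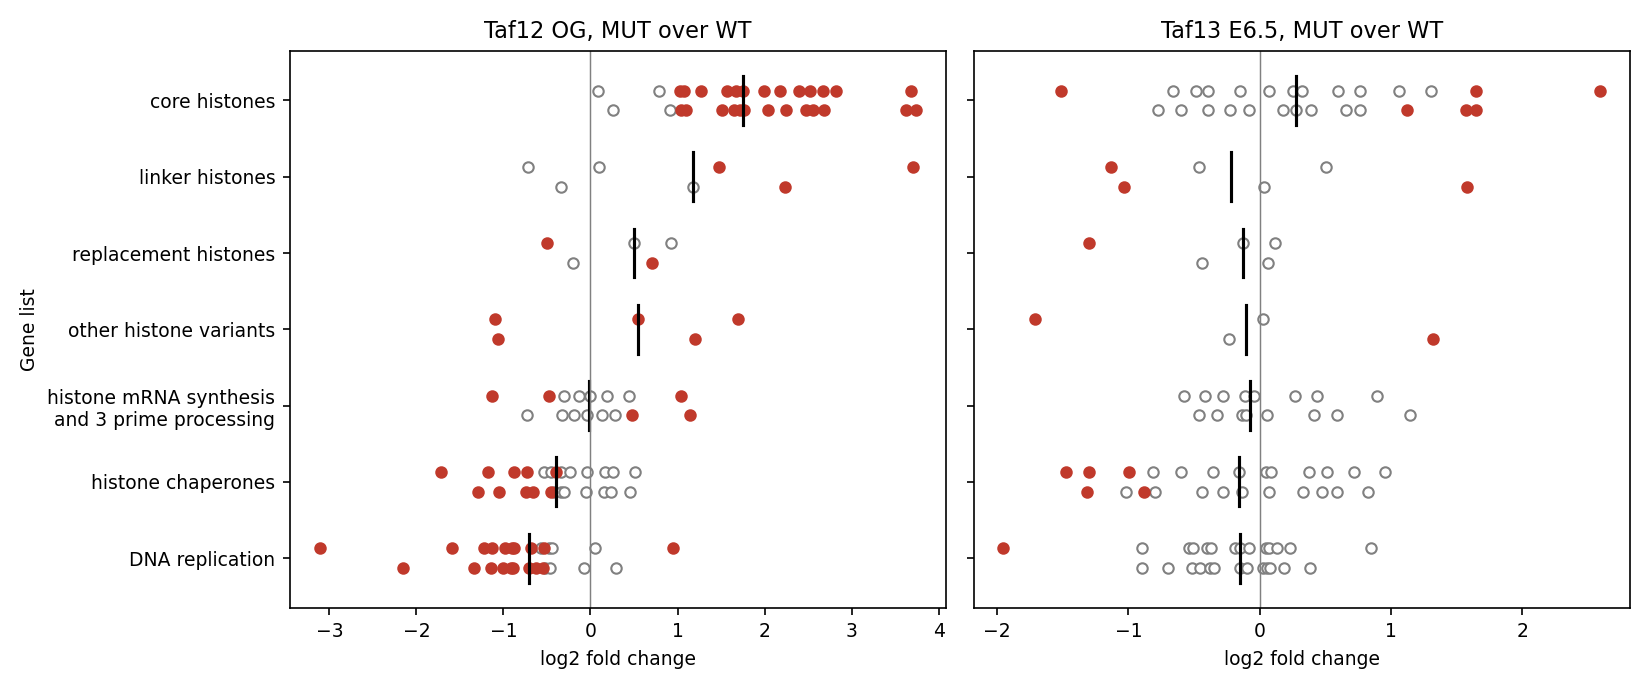
Log2 fold change of MUT over WT for the core, linker and replacement histones and the 4 companion lists (rows) in Taf12 outgrowths and Taf13 E6.5 embryos (panels); points are genes, filled where the adjusted p is under 0.05, short black lines are medians and the grey line marks no change. In the Taf12 outgrowths the core histones lie right of the line (median 1.76) and the DNA replication genes mostly left of it (median −0.71).

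At Taf13 E6.5, where 13% of all genes were called and 6.4% were lower, 1 of 27 replication genes fell in MUT: Ccne1, at 19.3 ± 6.53 FPKM in MUT and 75.6 ± 3.77 in WT (−1.95, adjusted p = 1.99e-05). Of 25 chaperones 5 fell there, Asf1a, Asf1b, Npm1, Npm3 and Nap1l1, by −0.99 for Nap1l1 and −1.31 for Npm1, and none of 16 processing genes was called. Macroh2a1 rose (1.32, 0.00188) and Macroh2a2 fell (−1.71, 0.00398), the directions they had in the outgrowths. In Taf12 MUT blastocysts Lsm11, the partner of Lsm10 in the U7 particle, fell to 1.79 ± 1.61 FPKM, against 14.4 ± 4.23 in WT (−2.65, 0.022), as did Prim1 (−1.12, 0.0118) and Mcm3 (−1.55, 0.0322) of 27 replication genes; no chaperone or other variant was called. In Taf5 and Taf13 MUT blastocysts none of the 16, 25, 27 and 4 genes tested in the 4 lists was called, and none was in HET of any set.

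The authors' deposited table compares MUT with WT in the Taf5 line and with WT and HET together in the other lines. In it, 33 of 45 histone genes with an adjusted p had one under 0.05 in outgrowths, 32 higher and H2az1 lower, where 39.9% of all genes did. It adds H2bc27 (log2 fold change 4.01, adjusted p = 0.000225), H2bc12 (2.99, 0.000331), H2ax (0.98, 0.00155), H3f3a (0.54, 0.00562) and H2bc14 (2.05, 0.0162) in the authors' deposited table. Called here but not under 0.05 in the authors' deposited table were H2bc15 (2.18, 0.0843), H2bc9 (2.20, 0.114) and H3c8 (1.38, 0.166). At Taf13 E6.5 the authors' deposited table has 14 of 45 under 0.05, 7 higher and 7 lower, with 23.5% of all genes. Those not called here are, in the authors' deposited table, H2bc22 (2.29, 0.0176), H2bc12 (−1.81, 0.0298), H2bc9 (−2.87, 0.0311) and H2ac8 (−0.81, 0.0338). In Taf12 blastocysts the authors' deposited table has 8 of 39, with 9.71% of all genes: H3f3b, H2bc4, H1f2, H2az2, H2ax, H4c9 and H2ac25 higher and H2bc9 lower (−5.36, 0.0477). It has 0 of 32 in Taf5 blastocysts (1.9% of all genes) and 0 of 30 in Taf13 blastocysts (4.35%), per the authors' deposited table.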

How the data were processed

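Per the labels' protocols, RNA of single embryos was amplified with a low-input kit and sequenced as 76-base pairs. STAR 2.7.6a and Trimmomatic 0.39 are named with build GRCm39, per the submitters' processing notes. How strand and reads that fit several genes were handled is not given in the sources used here. Per the file headers, the deposited values are FPKM per gene and library and, per comparison made by the authors, a log2 fold change, its standard error, a mean normalized count, a p-value and an adjusted p-value. They normalized each set separately. For each gene, the ratio of their mean normalized count to mean FPKM was set against the same ratio in Taf13 E6.5. The ratios stood in the same proportion for 95.9% to 99.2% of genes in the other sets.

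Here log2(FPKM + 1) was fitted per set with limma 3.58.1 (R 4.3.3), group means of all genotypes, mean-variance trend and robust variances, for genes with at least 1 FPKM in as many libraries as the smallest group. P-values are two-sided and Benjamini-Hochberg adjusted over all genes tested. Whole reads were recovered by dividing by the FPKM of 1 read; of values up to 500 reads, 99.7% (lowest library) to 99.9% (median library) were whole within 0.05. The reads gave depth, sums per M, counting intervals (exact, counting error only) and the voom alternative. Lengths and stem loops came from GENCODE vM21 (GRCm38), promoters from RefSeq (GRCm38.p6).

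The members, companion lists and markers were chosen with earlier results of these data known. The text names H1f2, H2bc4, H3f3b, every member called in a comparison or in the authors' table, and the 3 with the smallest p per comparison. Replicate numbers were not used to pair the samples in the main fit. Correlations of same-numbered embryos ran from −0.436 to 0.383 over 31 pairs. They were not set against differently numbered pairs, so whether same-numbered embryos share a litter or batch was not tested. Library pairs within a group correlated at 0.928 to 0.991, and none were identical. The fit was tested on simulated data.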

Additional observations from a re-analysis of the deposited data

Results flagged for a closer look

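Of 54 groups of values of class sums and of H1f2, H2bc4 and H3f3b, 5 had a library far from the others of its group; chance gives about 1 in 20. Linker histone reads were 161.9 per M in Taf12 E3.5 HET 3. H1f2 was at 22.5 FPKM in outgrowth WT 1 and at 3.30 FPKM in Taf13 E6.5 HET 8, where H3f3b was at 4013 FPKM. H2bc4 was at 40.2 FPKM in Taf13 E6.5 WT 3.

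The MUT effect on 6 genes was larger in Taf12 outgrowths than in Taf12 blastocysts by a test of the difference: H2bc8 by 3.02, H1f1 by 2.61, H2bc6 by 2.32, H4c9 by 2.12, H3c1 by 2.08 and H4c8 by 1.83 on the log2 scale. Of these, H1f1, H2bc6, H3c1 and H4c8 had passed the outgrowth filter on low values only through the MUT libraries. The MUT effect on H1f2 was larger in Taf12 than in Taf13 blastocysts by 3.86.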

How the results depend on the processing

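Each result was computed again with pseudocounts of 0.1 and 5, no filter, a filter of 10 recovered reads, voom weights on recovered reads, rescaling to total reads, only 2 genotypes in the fit, WT and HET together as control, the replicate number as a block, and without each library. Called under every alternative in which they passed the filter were 27 of 31 genes in MUT outgrowths (H2bc6 and H2bc22 were tested in 13 of 17), 1 of 4 in Taf12 MUT blastocysts (H1f2), 2 of 10 in Taf13 MUT E6.5 embryos, 2 of 6 in the contrast of outgrowths with blastocysts (H1f1, and H2bc6 in the 17 of 20 that tested it) and 0 of 1 in that of Taf12 with Taf13. Of the 31 outgrowth calls, 14 had passed the main filter only through the MUT libraries, in which they are high. H1f1 and H2bc6 were among these. At E6.5 the same held for H4c1, 1 of the 2 that stayed called.

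The count in Taf12 MUT blastocysts (4) was 1 with no filter, 1 with only 2 genotypes and 2 with the replicate block. The Taf13 E6.5 count (10) was 6 with a pseudocount of 0.1, 6 with no filter, 2 with only 2 genotypes and 3 with the replicate block. With no filter the outgrowth contrast (6) gave 14 and the Taf13 stage contrast (0) gave 2. The Taf12 with Taf13 contrast (1) gave 0 with a pseudocount of 0.1 and 0 with the replicate block. The causes were not tested. Voom weights called 31 histone genes in MUT outgrowths (5077 of all genes), 4 in Taf12 blastocysts (186) and 7 at Taf13 E6.5 (2347); in Taf5 and Taf13 blastocysts they called 0 and 1 of all genes, against 12 and 16. Without 1 library, the counts ran from 27 to 31 in outgrowths, 1 to 4 in Taf12 blastocysts, 2 to 8 at E6.5, 4 to 7 in the outgrowth contrast, 0 to 1 in the stage contrast and was 1 throughout for Taf12 with Taf13.

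Signs turned only in results that were not called. At E6.5 HET, H3f3b had −0.000623 with voom weights and −0.252 with the replicate block, and H2bc4 −0.0494 with the replicate block; H1f2 in the outgrowth contrast had −0.997 with a pseudocount of 0.1. Without 1 library, H2bc4 ran from −0.129 to 0.311 in HET outgrowths, −0.115 to 0.572 in Taf13 HET blastocysts and −0.00394 to 0.366 in HET E6.5 embryos. H1f2 ran from −0.362 to 0.149 in HET outgrowths and −0.789 to 0.0134 in Taf13 MUT blastocysts, and H3f3b from −0.106 to 0.206 in HET E6.5 embryos and −0.24 to 0.00347 in Taf13 HET blastocysts. Of all recomputed values, 15 turned sign, 112 dropped below the threshold and 1 passed it. Low members rest on few reads: in MUT outgrowths H2ac13 had 3 to 17 and H2bc9 3 to 43. At E6.5 there were 2 MUT embryos.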
